A study of Mus musculus with 18 samples.

Results

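The nuclear genes for mitochondrial ribosomal proteins were followed through 18 RNA sequencing libraries of mouse bone-marrow-derived macrophages, primary macrophages grown in culture from wild-type marrow. Members were all genes in the count tables whose GENCODE M21 symbol is Mrpl or Mrps followed by a number, which gave 78 of 22598 genes. The 6 groups of 3 libraries were macrophages given interferon-gamma (IFNg) plus tumour necrosis factor (TNF), IFNg with interleukin-1 beta (IL1b), IFNg with LPS, the lipopolysaccharide of the outer membrane of Gram-negative bacteria, IFNg with hypoxia, IFNg alone, and an untreated control, all taken at 18 h. The labels name no mouse strain, age, dose or oxygen level. Library titles carry M1, M2 or M3 in every group, and the labels do not say whether these stand for mice, dishes or only numbers. Each p-value thus rests on library-to-library spread that could be purely technical. An addition is named alone in what follows, but IFNg was present in every one. Libraries held 12270565 to 20952799 counts in genes, and replicates of a group differed by more than counting noise, with chi-square values of 11.9 to 50.6 per degree of freedom. In bulk RNA, fewer cells of a type and less RNA per cell cannot be told apart.

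Mitochondria carry their own ribosome, which translates the few messages of mitochondrial DNA, all of them for subunits of the respiratory chain and ATP synthase. Its ribosomal RNAs come from mitochondrial DNA, while every one of its proteins is encoded in the nucleus, made in the cytosol and imported. Many of these proteins have bacterial homologues, and others were added during the evolution of mitochondria and have none. In macrophages, IFNg with a second inflammatory signal is known for a turn away from mitochondrial respiration towards glycolysis and nitric oxide production.

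By the known composition of the mammalian mitoribosome, 51 members belong to the large subunit and 26 to the small one. Mrps18a and Mrps30 are counted in the large subunit, where they reside despite their names. Mrps36 was placed in neither, since its product is known as a component of the oxoglutarate dehydrogenase complex. Of the large-subunit members, 30 were classed as bacterial homologues and 20 as mitochondria-specific, and of the small-subunit members 16 and 10. The genes were spread over 17 chromosomes. They were short, with widths in the deposited tables of 198 to 1329 bases and a median of 599, against 1155 over all genes. A protein-coding gene starts on the opposite strand within 1000 bases upstream for 18 members, or 23.1%, against 6.8% of all 21784 protein-coding genes in the tables, and Mrpl54, Mrps34 and Mrps18c start 26 to 29 bases from such a neighbour.

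Per length, in the deposited RPKM (reads scaled to gene width and library total), the members' mean level over the 18 libraries had a median of 15.4. Mrpl24 was the highest with a mean RPKM of 57.5, followed by Mrpl14 with 41.6, Mrpl20 with 41.0 and Mrps17 with 35.6. Mrpl14 sits at the interface of both subunits. At the low end stood Mrps26 with a mean RPKM of 2.25, Mrps10 with 1.2, Mrps36 with 0.198 and Mrpl23 with 0.0138. Mrpl23 had 0 to 1 counts in each library and Mrps36 had 0 to 15, and neither passed the filter on low counts, so 76 members were tested. Of the 50-base windows in Mrpl23, 79.7% also occur in another annotated gene, its copy Mrpl23-ps1, and in Mrps36 the share was 91.8%. Reads from such stretches may not be assignable to 1 gene, and these low counts are uncertain for that reason. Among all members 36 had at least 1 such window and 7 had them over at least 50% of their coding sequence, with Mrpl53 at 100%. Of members called in a comparison below, Mrps6 had 42.0% such windows, Mrps30 41.8%, Mrps34 40.2% and Mrpl42 30.8%. Mrpl24 had 28.5%, Mrpl41 28.1% and Mrps27 22.9%, and the calls of these members carry the same uncertainty. These counts and shares include matches on the opposite strand.

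Promoters were read from RefSeq (GRCm38.p6, 250 bases before to 50 after the start) for 69 members and searched on both strands for 4 short motifs of factors known to act on genes for mitochondrial proteins or for growth. The NRF1 core TGCGCA was present in 21 of them, or 30.4%, against 8.8% of 27025 genes in the promoter table. The ETS core CCGGAAG, to which GABP binds, was present in 26 (37.7% against 9.9%), and the YY1 core AAGATGG in 13 (18.8% against 7.3%). The E-box CACGTG, bound by Myc and its relatives, was present in 5 (7.2% against 8.1%). These shares describe letters in a window and not bound sites. The promoters printed here are that of Mrps18a (chr17:46110754-46111053, plus strand), which holds 3 of the motifs, that of Mrps6 (chr16:92058086-92058385, plus strand), the member that fell with IFNg, and those of Mrpl39 (chr16:84735195-84735494, minus strand) and Mrpl16 (chr19:11770165-11770464, plus strand), which changed most with TNF in each direction among members in the promoter table. Capitals mark the exact motif matches, which are the NRF1, ETS and YY1 cores in that order in Mrps18a and the NRF1 core in Mrps6. Mrpl39 and Mrpl16 held no exact match, and sites of these factors with other letters were not searched for. Mrps18a and Mrps6 were added to the set after their values were seen.
Mrps18a: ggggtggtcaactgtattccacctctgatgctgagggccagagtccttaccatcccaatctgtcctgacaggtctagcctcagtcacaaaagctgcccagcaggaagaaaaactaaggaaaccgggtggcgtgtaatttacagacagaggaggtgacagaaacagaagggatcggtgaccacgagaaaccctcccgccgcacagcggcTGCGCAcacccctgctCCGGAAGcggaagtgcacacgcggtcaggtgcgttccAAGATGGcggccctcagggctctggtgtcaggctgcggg
Mrps6: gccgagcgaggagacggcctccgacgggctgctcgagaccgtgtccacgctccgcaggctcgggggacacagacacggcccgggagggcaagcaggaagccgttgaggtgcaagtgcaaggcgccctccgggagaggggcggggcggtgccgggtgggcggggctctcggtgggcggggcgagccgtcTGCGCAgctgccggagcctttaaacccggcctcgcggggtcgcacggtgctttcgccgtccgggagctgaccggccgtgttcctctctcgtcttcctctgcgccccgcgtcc
Mrpl39: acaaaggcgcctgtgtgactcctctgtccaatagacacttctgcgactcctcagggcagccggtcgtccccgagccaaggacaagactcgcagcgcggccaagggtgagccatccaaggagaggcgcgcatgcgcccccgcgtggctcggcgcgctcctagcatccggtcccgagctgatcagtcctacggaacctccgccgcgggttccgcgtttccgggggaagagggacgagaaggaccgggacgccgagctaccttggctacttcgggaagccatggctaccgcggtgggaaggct
Mrpl16: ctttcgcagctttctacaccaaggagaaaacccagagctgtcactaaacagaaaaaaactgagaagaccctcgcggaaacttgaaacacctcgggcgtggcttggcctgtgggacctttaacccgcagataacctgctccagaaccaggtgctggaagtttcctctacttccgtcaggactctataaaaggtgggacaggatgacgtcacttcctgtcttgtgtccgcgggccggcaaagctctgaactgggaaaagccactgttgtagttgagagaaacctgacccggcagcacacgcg

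IFNg against control asked what the cytokine alone did to these genes. It left most of them where they were within the spread of the libraries, with 5 members higher and 1 lower of 76 by the quasi-likelihood test of edgeR at an adjusted p under 0.05. Of all 11563 tested genes, 13.5% were called higher and 10% lower, so the members' shares of 6.6% and 1.3% stood below the background in both directions. The members' median log2 fold change minus that of all tested genes was 0.08, but -0.01 without the first IFNg library, so its direction rests on that library. The median itself was 0.07 with the main scaling (trimmed mean of M values, TMM), turning to -0.08 when libraries were scaled to the totals behind the RPKM values. That other scaling moved the median of all genes by -0.15 on the log2 scale here, by -0.32 for TNF, -0.25 for hypoxia, -0.08 for LPS and 0 for IL1b against IFNg, by -0.24 for TNF against LPS and by -0.07 for TNF against hypoxia.

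The lower member was Mrps6 (ENSMUSG00000039680, chromosome 16, 92058270 to 92112227, mm10), a small-subunit protein whose bacterial homologue pairs with S18 on the platform of the subunit. Levels are given as CPM, counts scaled to the library total with TMM factors. Mrps6 had 3.08, 3.18 and 4.24 CPM in the IFNg libraries, against 18.8, 28.6 and 22.6 CPM in the control libraries. The groups stood far apart, and every library that received IFNg, whatever was added, had at most 6.04 CPM. The log2 fold change was -2.74 with a standard error (SE) of 0.50 (edgeR adjusted p = 0.000108). Of the 50-base windows of Mrps6, 42.0% also lie in Gm49711, a gene annotated on the same strand that starts 46 bases after it and has no row in the count tables. Slc5a3, the sodium-coupled inositol transporter gene, starts 52 bases after Mrps6 on the same strand and lies inside it. Slc5a3 had 0.261, 3.0 and 0.615 CPM in IFNg libraries, against 21.9, 25.9 and 19.5 CPM in control libraries, a log2 fold change of -4.11 with an SE of 1.04 (edgeR adjusted p = 0.00579). Slc5a3 was added after its values were seen. How far reads of one gene at the locus were counted for another was not tested.

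The 5 members that rose with IFNg came from both subunits. Mrpl47, a large-subunit homologue of bacterial L29 near the exit of the peptide tunnel, had 12.3, 9.12 and 9.64 CPM in IFNg libraries, against 4.29, 5.69 and 3.51 CPM in control libraries. All IFNg libraries lay above all control libraries, with a log2 fold change of 1.2, an SE of 0.31 and an edgeR adjusted p of 0.0043. Mrps27, a mitochondria-specific RNA-binding protein of the small subunit, had 40.2, 21.6 and 36.9 CPM with IFNg, against 18.0, 9.41 and 22.6 CPM in control. Its groups overlapped, since the second IFNg library lay below the third control library, and its log2 fold change was 0.98 with an SE of 0.24 (edgeR adjusted p = 0.00287). Mrpl42, a mitochondria-specific protein, rose by 0.88 on the log2 scale (SE 0.26), Mrps2, the homologue of bacterial S2, by 0.83 (SE 0.21), and Mrpl3, the homologue of L3 near the peptidyl transferase centre, by 0.52 (SE 0.15). The edgeR adjusted p was 0.0112 for Mrpl42, 0.00371 for Mrps2 and 0.00965 for Mrpl3. The call of Mrpl3 was lost with RPKM totals or without the third control library, and that of Mrpl42 without the second or the third control library. Mrps10, the lowest tested member, had 0.740 ± 0.318 CPM with IFNg and 2.89 ± 0.684 CPM in control (SD, n = 3 each), with a log2 fold change of -1.95, an SE of 1.03 and an edgeR adjusted p of 0.19.

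**Figure D1:**
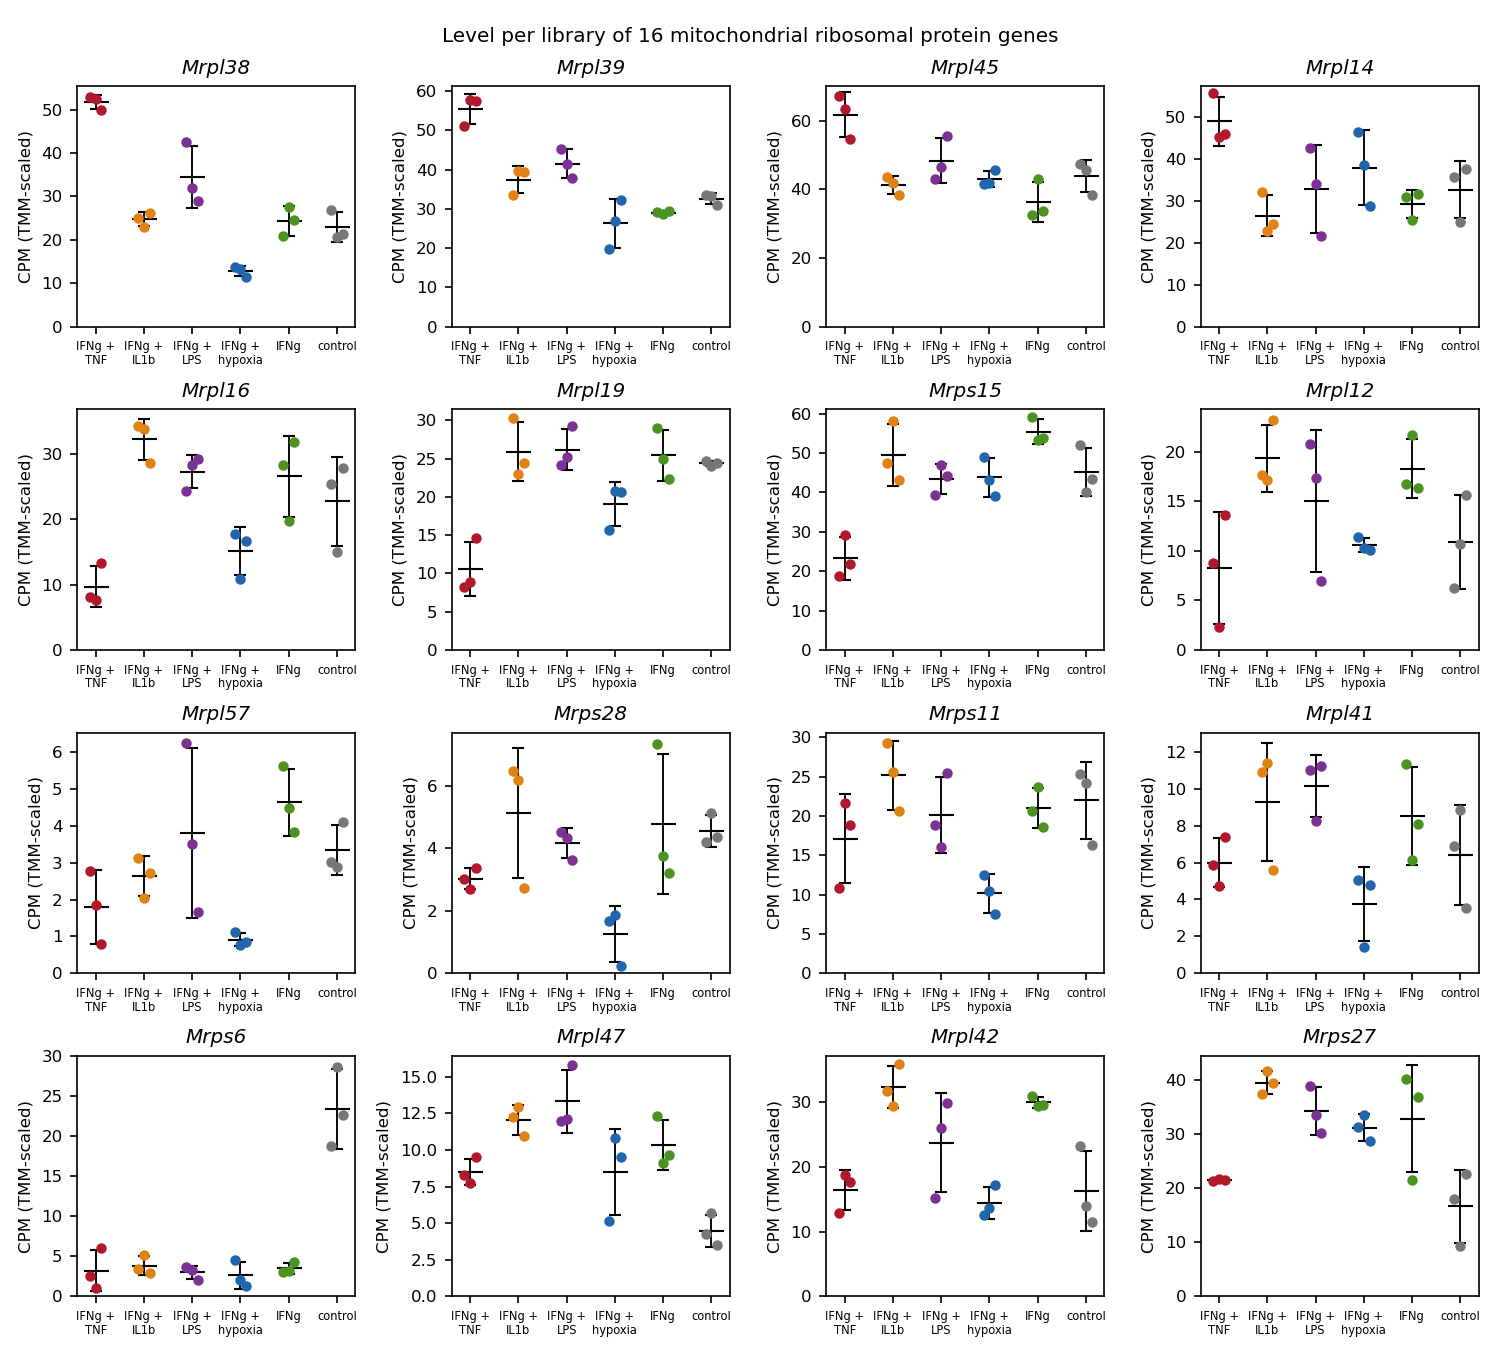
Level of 16 members in each library, in CPM scaled by TMM factors, for IFNg with TNF, IL1b, LPS or hypoxia, IFNg alone and control. Each point is a library and the bars give mean and SD of 3. Mrpl38 lies at 49.9 to 52.8 CPM with TNF, at 11.4 to 13.8 CPM with hypoxia and at 20.9 to 27.6 CPM with IFNg alone, while Mrps6 reaches 18.8 CPM or more only in control libraries.

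With TNF added to IFNg, members were called in both directions. Of 76 members 4 rose and 20 fell (edgeR, adjusted p under 0.05), where 22.1% of all tested genes were called higher and 22.6% lower. With TMM the share of members called lower, 26.3%, was thus near the background, while the share called higher, 5.3%, was below it. Without the second TNF library 4 rose and 12 fell, where 2282 of 11867 tested genes were called higher and 2349 lower. The members' median log2 fold change was -0.35, against -0.05 over all tested genes. With RPKM totals 3 members rose and 36 fell against 14.6% and 34.5% of all genes, and the median of the members relative to all genes was -0.30 with those totals and -0.31 with TMM.

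All 4 members that rose belong to the large subunit, and 3 are mitochondria-specific. Mrpl38 (chromosome 11, 116131817 to 116138868), a mitochondria-specific protein, had 52.8, 52.5 and 49.9 CPM with TNF, against 20.9, 27.6 and 24.5 CPM with IFNg alone. Every TNF library was well above every IFNg library, with a log2 fold change of 1.09, an SE of 0.19 and an edgeR adjusted p of 2.12e-05. Mrpl39 (chromosome 16, 84717576 to 84735742), a relative of threonyl-tRNA synthetase that has no known synthetase activity, had 51.1, 57.8 and 57.6 CPM with TNF, against 29.2, 28.6 and 29.5 CPM with IFNg. Its log2 fold change was 0.93 with an SE of 0.17 (edgeR adjusted p = 5.12e-05), and the groups were again far apart. Mrpl45, which lies at the tunnel exit and ties the ribosome to the inner membrane, had 67.1, 63.5 and 54.6 CPM with TNF, against 32.4, 42.9 and 33.7 CPM with IFNg (log2 fold change 0.77, SE 0.16, edgeR adjusted p = 0.000226). Mrpl14, the homologue of bacterial L14, had 55.7, 45.3 and 46.0 CPM with TNF, against 30.9, 25.5 and 31.7 CPM with IFNg. It rose by 0.74 on the log2 scale (SE 0.22, edgeR adjusted p = 0.00838), and this call was lost with RPKM totals.

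In the large subunit 13 of 50 members, or 26.0%, fell with TNF, where 22.6% of all tested genes were called lower. Mrpl16 (chromosome 19, 11770391 to 11774960), whose bacterial homologue lies by the tRNA sites of the large subunit, had 8.11, 7.62 and 13.3 CPM with TNF, against 28.2, 19.7 and 31.7 CPM with IFNg. The groups did not overlap, and the log2 fold change was -1.46 with an SE of 0.26 (edgeR adjusted p = 4.85e-05). Mrpl19 (chromosome 6, 81957851 to 81965958), the homologue of bacterial L19, had 8.23, 8.94 and 14.7 CPM with TNF, against 29.0, 24.9 and 22.4 CPM with IFNg. It fell by 1.27 on the log2 scale (SE 0.22, edgeR adjusted p = 3.65e-05), with all TNF libraries below all IFNg libraries. Mrpl12, which forms the stalk that recruits translation factors, had 8.78, 2.37 and 13.6 CPM with TNF, against 16.8, 21.7 and 16.3 CPM with IFNg. The TNF libraries of Mrpl12 varied widely, with a log2 fold change of -1.16, an SE of 0.45 and an edgeR adjusted p of 0.0415, and the call was lost in 5 of the fits that left out 1 library.

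Mrpl28, the homologue of bacterial L28, fell by 0.89 on the log2 scale (SE 0.18), Mrpl42 by 0.87 (SE 0.26) and Mrpl2, whose bacterial homologue lies by the peptidyl transferase centre, by 0.74 (SE 0.20). Mrpl28 averaged 27.5 ± 3.98 CPM with TNF and 51.0 ± 11.1 CPM with IFNg, Mrpl42 averaged 16.4 ± 3.11 CPM with TNF and 30.0 ± 0.837 CPM with IFNg (SD, n = 3 each), and neither pair of groups overlapped. Mrpl3, Mrpl40, Mrpl35, Mrps30, Mrpl44, Mrpl15 and Mrpl24 completed the 13 lower members of the large subunit, with log2 fold changes of -0.71 to -0.44. The TNF and IFNg libraries overlapped in Mrps30 and Mrpl44. Leaving out 1 library ended the call in 3 of 6 fits for Mrps30, Mrpl44, Mrpl15 and Mrpl24, in 2 for Mrpl40 and in 1, without the second TNF library, for Mrpl35. By class, the large subunit's bacterial homologues counted 1 higher and 9 lower of 29 and its mitochondria-specific members 3 and 4 of 20, and a difference was not tested. Of all tested genes 22.1% were called higher and 22.6% lower.

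In the small subunit 7 of 26 members, or 26.9%, fell with TNF and 0 rose. Of all tested genes 22.6% were called lower and 22.1% higher. Mrps15 (chromosome 4, 126046925 to 126055532), whose bacterial homologue S15 is one of the first proteins to bind the small-subunit rRNA, had 18.8, 29.3 and 21.8 CPM with TNF, against 59.1, 53.2 and 53.9 CPM with IFNg. It was lower in each TNF library than in any other library of the study, with a log2 fold change of -1.25, an SE of 0.18 and an edgeR adjusted p of 1.46e-06. The mitochondria-specific Mrps35 (-0.75, SE 0.27, edgeR adjusted p = 0.0259) and Mrps34 (-0.72, SE 0.28, edgeR adjusted p = 0.0358) fell as well, as log2 fold changes. Mrps23, Mrps2, Mrps9 and Mrps27 had log2 fold changes of -0.69 to -0.61. Mrps23 and Mrps27 had overlapping groups, and the call of Mrps23 (edgeR adjusted p = 0.0487) was also lost with the RLE size factors. Leaving out 1 library ended the calls of Mrps34 and Mrps27 in 5 of 6 fits, those of Mrps35 and Mrps23 in 4, and that of Mrps9 without the first IFNg library.

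**Figure D2:**
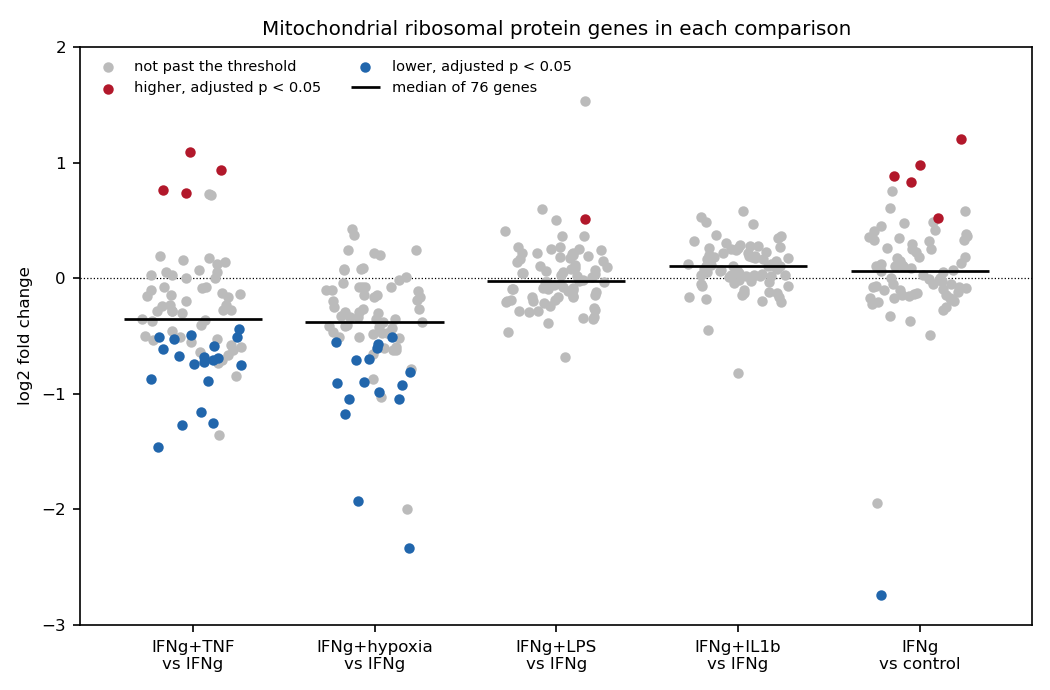
Log2 fold change of each of 76 tested members (points) in 5 comparisons, with the median as a line. With TNF 4 members are called higher and 20 lower, with hypoxia 0 and 16, with LPS 1 and 0, with IL1b none, and with IFNg against control 5 and 1; the IFNg median of 0.07 turns negative with RPKM totals.

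Hypoxia added to IFNg lowered members of both subunits and raised 0. Of 76 members 16 fell, or 21.1%, where 11.8% of all tested genes were called lower and 13.5% higher (edgeR). The median of the members was -0.38 on the log2 scale, against -0.01 over all genes, and 65 of 76 had a fold change below 0. With RPKM totals 29 members fell and 0 rose against 22.2% and 7.68% of all genes, and the median relative to all genes was -0.37 with either scaling. Without the third hypoxia library 10 members fell and 0 rose, where 1056 of 11898 tested genes were called lower and 1253 higher.

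Among called members, those that fell furthest with hypoxia were weakly expressed, and with their larger SEs only large falls could be called. Mrpl57 (chromosome 14, 57826234 to 57829296), a mitochondria-specific protein of the large subunit, had 1.13, 0.766 and 0.849 CPM with hypoxia, against 5.63, 4.47 and 3.83 CPM with IFNg alone. Its groups were far apart, with a log2 fold change of -2.33, an SE of 0.63 and an edgeR adjusted p of 0.0068. Mrps28 (chromosome 3, 8802146 to 8923918), a small-subunit protein related to bacterial S1, had 1.66, 1.87 and 0.232 CPM with hypoxia, against 7.35, 3.77 and 3.21 CPM with IFNg. It fell by 1.93 on the log2 scale (SE 0.58, edgeR adjusted p = 0.0146), with no overlap, but the third hypoxia library held only 3 counts and the call was lost without that library or the first IFNg library. Mrpl41, a mitochondria-specific protein, had 5.04, 1.45 and 4.79 CPM with hypoxia, against 11.4, 6.12 and 8.07 CPM with IFNg (log2 fold change -1.17, SE 0.43, edgeR adjusted p = 0.0468), and lost the call in 4 of the fits that left out 1 library.

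Better expressed members were called at smaller falls. Mrpl2 had 18.4, 20.4 and 19.2 CPM with hypoxia, against 36.3, 37.6 and 41.2 CPM with IFNg, a log2 fold change of -0.99 with an SE of 0.21 (edgeR adjusted p = 0.000639). Mrpl38 had 13.8, 13.3 and 11.4 CPM with hypoxia, against 20.9, 27.6 and 24.5 CPM with IFNg, with a log2 fold change of -0.92, an SE of 0.19 and an edgeR adjusted p of 0.00058. The libraries of the 2 groups were separate in both genes. Mrpl42 (-1.05, SE 0.26, edgeR adjusted p = 0.00322), Mrps11 (-1.04, SE 0.27, edgeR adjusted p = 0.00505) and Mrpl13 (-0.91, SE 0.21, edgeR adjusted p = 0.0019) fell on the log2 scale too, the last a homologue of bacterial L13. Mrpl46, Mrpl16, Mrps17, Mrps2, Mrpl40, Mrpl37, Mrpl35 and Mrpl3 had log2 fold changes of -0.90 to -0.51. Leaving out 1 library ended the call of Mrpl40 in 4 of 6 fits, of Mrpl16 in 3, of Mrps2, Mrpl37 and Mrpl3 in 2, and of Mrps17 and Mrpl35 in 1. By class, 7 of 20 mitochondria-specific members of the large subunit were called lower and 0 of 10 of the small subunit, while bacterial homologues counted 5 of 29 in the large and 4 of 16 in the small. A difference between these classes was not tested, and 11.8% of all tested genes were called lower.

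LPS moved 1 member past the test and IL1b 0. With LPS 1 of 76 members rose and 0 fell, where 10.2% of all genes were called higher and 10.1% lower by edgeR. DESeq2 called 3 members higher and 0 lower, where it called 22.8% of the 11338 genes with an adjusted p, in either direction. By edgeR 5 members had an unadjusted p under 0.05, against 30.8% of all genes. The member called was Mrpl39, with 45.3, 41.5 and 37.9 CPM with LPS, against 29.2, 28.6 and 29.5 CPM with IFNg. The LPS libraries all lay higher, by 0.52 on the log2 scale (SE 0.17, edgeR adjusted p = 0.0295), but the call was lost with RPKM totals and in 5 of 6 fits that left out 1 library of these groups. With IL1b 0 members were called by edgeR and 0 by DESeq2, and 1 had an unadjusted edgeR p under 0.05. There edgeR called 0.268% of all genes higher and 0.0346% lower, and 5.15% had such an unadjusted p. DESeq2 called 1.27% of the 6631 genes to which it gave an adjusted p, in either direction. A count of 0 is near that background and says nothing particular to the members. The members' medians were -0.02 with LPS and 0.10 with IL1b on the log2 scale.

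TNF and LPS were also compared directly, since both are inflammatory signals that work through NF-kappaB. With TNF 1 member stood higher and 10 lower than with LPS, where 13.1% of all genes were called higher and 12.2% lower (edgeR). The median of the members was -0.36 against -0.02 over all genes, and with RPKM totals 0 members were higher and 30 lower, against 7.65% and 22.7% of all genes. Without the first TNF library 0 members were higher and 7 lower, where 1420 of 11858 tested genes were called higher and 1314 lower. Without the second TNF library the members' counts were the same, where 1255 of 11867 genes were called higher and 1270 lower. Mrpl38 was higher by 0.58 on the log2 scale (SE 0.18, edgeR adjusted p = 0.0189), averaging 51.7 ± 1.59 CPM with TNF and 34.5 ± 7.11 CPM with LPS, a call lost with RPKM totals and in 4 of 6 fits that left out 1 library. Mrpl16 averaged 9.69 ± 3.17 CPM with TNF and 27.3 ± 2.57 CPM with LPS (log2 fold change -1.5, SE 0.26, edgeR adjusted p = 8.74e-05). Mrpl19 averaged 10.6 ± 3.54 CPM with TNF and 26.2 ± 2.67 CPM with LPS (log2 fold change -1.31, SE 0.22, edgeR adjusted p = 6.2e-05; SD, n = 3 in each group). Mrpl28 and Mrps15 were each at -0.90, and Mrps23, Mrpl35, Mrps27, Mrpl40, Mrps2 and Mrpl3 at -0.83 to -0.41. Of these only Mrps23 had overlapping groups. Leaving out 1 library ended the calls of Mrpl3, Mrps2 and Mrps27 in 5 of 6 fits, of Mrps23 in 3 and of Mrpl40 in 2, and that of Mrpl3 was also lost with RLE size factors.

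TNF and hypoxia were set side by side, since both were compared with the same IFNg libraries and the members' median was below 0 in each. For TNF the share of members called lower was near that of all tested genes with TMM. With RPKM totals 36 of 76 members were called lower for TNF, against 34.5% of all genes. Against IFNg, Mrpl2 had a log2 fold change of -0.74 with TNF and -0.99 with hypoxia, Mrpl42 had -0.87 with TNF and -1.05 with hypoxia, and Mrpl16 had -1.46 with TNF and -0.81 with hypoxia. Compared directly, 8 members were higher and 6 lower with TNF than with hypoxia, where 18.9% of all genes were called higher and 20.1% lower, and with RPKM totals 7 were higher and 10 lower, against 16.5% and 22.3% of all genes. Mrpl38 was furthest apart, 4.03-fold higher with TNF than with hypoxia (log2 fold change 2.01, SE 0.19, edgeR adjusted p = 2.27e-09). Mrpl39 averaged 55.5 ± 3.84 CPM with TNF and 26.3 ± 6.29 CPM with hypoxia (log2 fold change 1.08, SE 0.17, edgeR adjusted p = 9.84e-06). Mrpl53, which shares all its windows with Gm42688 and is uncertain for that, was at 1.75 (SE 0.47, edgeR adjusted p = 0.00408), and Mrpl46, Mrps22, Mrpl13, Mrps11 and Mrpl45 at 0.82 to 0.52. On the other side, Mrps35 averaged 10.96 ± 2.18 CPM with TNF and 24.8 ± 3.87 CPM with hypoxia, a log2 fold change of -1.18 (SE 0.27, edgeR adjusted p = 0.00101; SD, n = 3 in each group). Mrps15 stood at -0.91 (SE 0.18, edgeR adjusted p = 0.00014) and Mrpl19 at -0.85 (SE 0.22, edgeR adjusted p = 0.0034), with Mrps30, Mrpl24 and Mrpl28 at -0.59 to -0.46. The groups overlapped in Mrps11, whose call was lost with RPKM totals and in 4 of 6 fits that left out 1 library. Such fits ended the call of Mrpl28 in 5 of 6, of Mrps30 in 3, of Mrpl24 in 2 and of Mrps22 without the second hypoxia library.

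**Figure D3:**
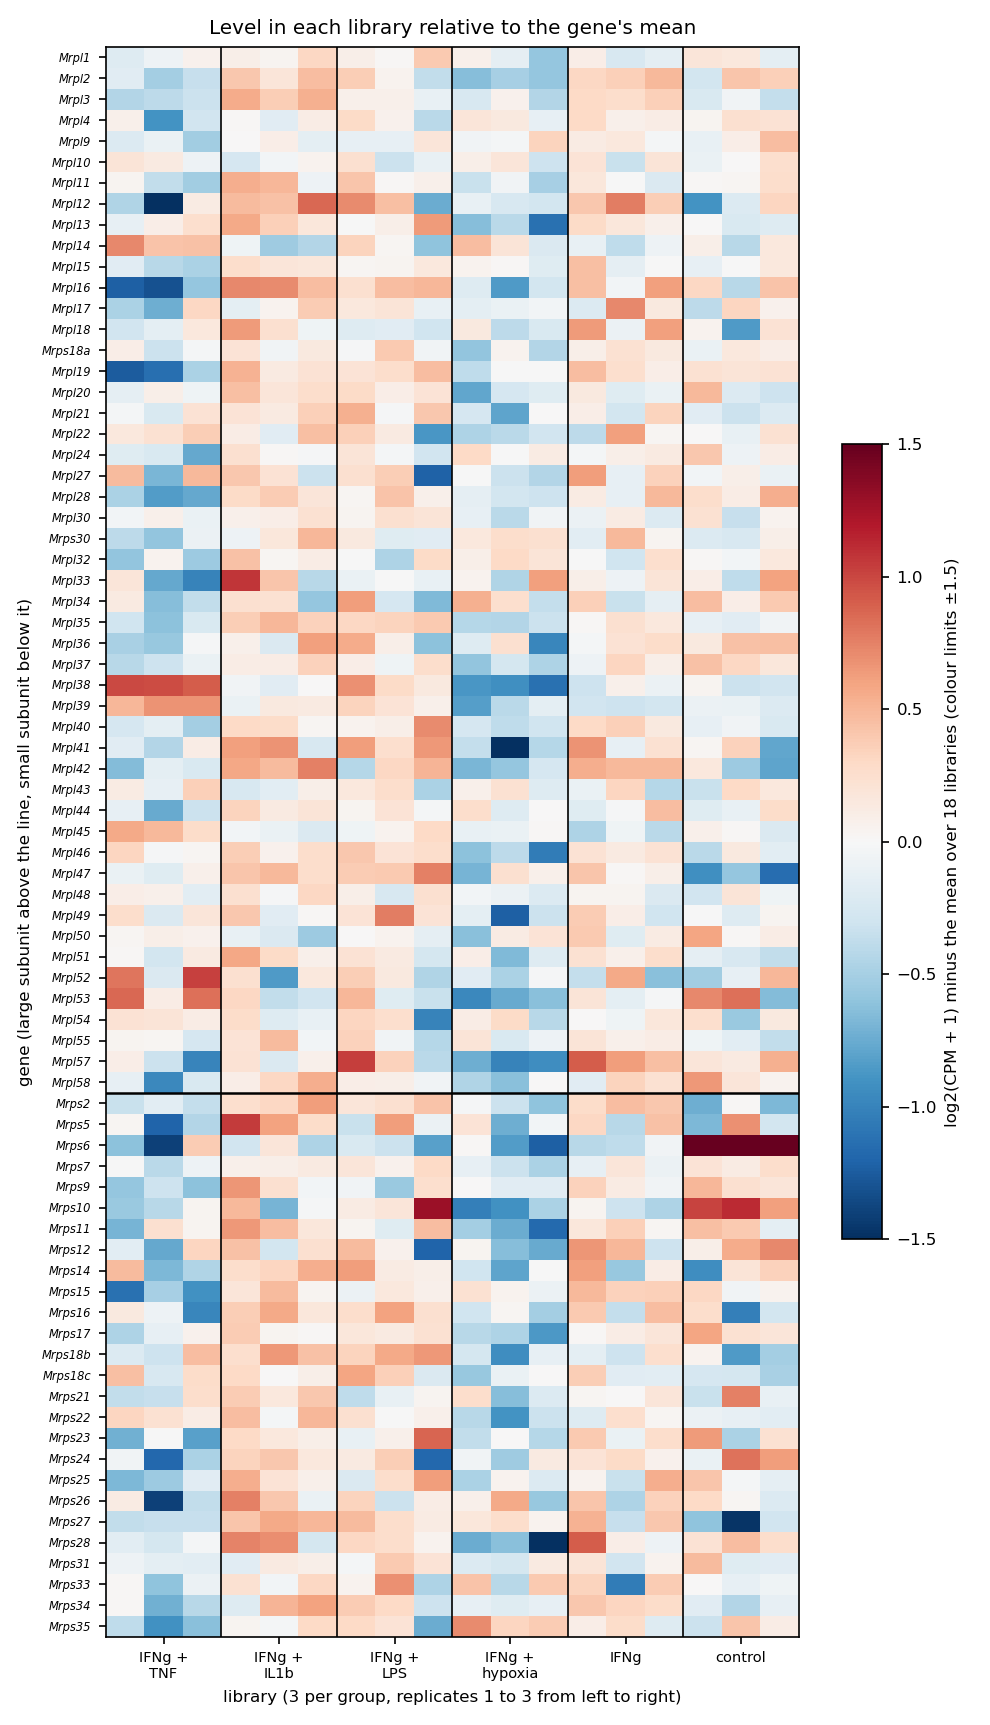
Level of each of the tested members in each library as log2(CPM + 1) minus the gene's mean over the 18 libraries, with colours ending at 1.5 in either direction. Columns are libraries by group, and the large subunit stands above the line. Mrpl38 is red in the TNF libraries and blue in the hypoxia libraries, and Mrps6 is reddest in the control libraries.

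Across the 7 comparisons 36 members were called at least once and 40 never. The share of all tested genes called at least once was not counted, so these counts say nothing particular to the members. In the comparison of TNF with IFNg alone, 22.1% of all tested genes were called higher and 22.6% lower. Mrpl38 was called higher with TNF and lower with hypoxia, each against the same IFNg libraries. Summed over the tested members, the family held 1311 to 1436 CPM in TNF libraries, 1301 to 1379 in hypoxia libraries, 1745 to 1862 with IL1b, 1631 to 1740 with LPS, 1627 to 1712 with IFNg alone and 1518 to 1622 in control. The TNF and hypoxia libraries thus lay below all others in this sum, and these sums were 0.106 to 0.205% of a library's counts.

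**Figure D4:**
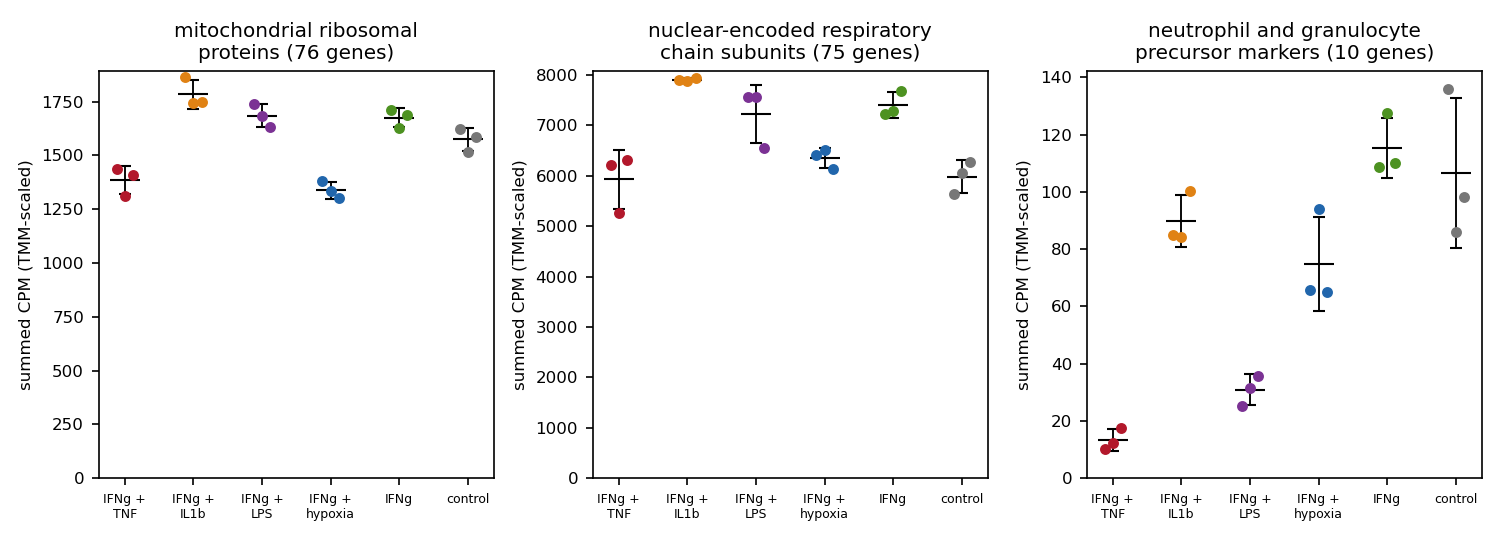
Summed level in CPM per library of the tested members, of nuclear-encoded respiratory chain subunits, and of neutrophil and granulocyte precursor markers, by group, with mean and SD of 3. The member sums are 1311 to 1436 CPM with TNF and 1301 to 1379 CPM with hypoxia, below the 1627 to 1712 CPM of IFNg, while the granulocyte markers are at 10.2 to 17.5 CPM with TNF and 109 to 128 CPM with IFNg.

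Other genes of mitochondrial translation were read from lists. The 5 mitoribosome proteins whose symbols fall outside the pattern, Dap3, Ptcd3, Chchd1, Aurkaip1 and Gadd45gip1, gave 0 calls in all 7 comparisons by edgeR. Against IFNg, 1 had an unadjusted p under 0.05 for TNF and 3 for hypoxia. The share of all tested genes with such a p is not given here, so these counts say nothing particular to the list. Of all tested genes 22.1% were called higher and 22.6% lower with TNF, and 13.5% and 11.8% with hypoxia. These shares were 10.2% and 10.1% with LPS, 0.268% and 0.0346% with IL1b, and 13.5% and 10% with IFNg against control. For TNF they were 13.1% and 12.2% against LPS, and 18.9% and 20.1% against hypoxia. Dap3, the small-subunit GTP-binding protein, averaged 38.8 ± 8.18 CPM with TNF, 46.5 ± 4.31 CPM with hypoxia and 37.2 ± 4.29 CPM with IFNg alone (SD, n = 3 each), and Aurkaip1 came nearest to a call with hypoxia at -0.42 (SE 0.16, edgeR adjusted p = 0.0528).

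Among 26 genes of mitoribosome assembly and rRNA modification, 1 rose and 5 fell with TNF, and 1 rose and 4 fell with hypoxia. With LPS 0 rose and 2 fell, and 0 were called with IFNg against control. Over all tested genes 22.1% were called higher and 22.6% lower with TNF, 13.5% and 11.8% with hypoxia, and 10.2% and 10.1% with LPS. For IFNg against control these shares were 13.5% and 10%. Rbfa, which matures the small-subunit rRNA, had 23.1, 19.2 and 28.02 CPM with TNF, against 93.6, 95.0 and 84.0 CPM with IFNg. No TNF library came near the IFNg libraries, and Rbfa fell by 1.96 on the log2 scale (SE 0.15, edgeR adjusted p = 3.76e-11). With hypoxia Rbfa averaged 100.5 ± 7.14 CPM (SD, n = 3). The rRNA methyltransferase gene Mrm3 fell with TNF (-1.65, SE 0.57, edgeR adjusted p = 0.0192) and with hypoxia (-1.87, SE 0.58, edgeR adjusted p = 0.0172) on the log2 scale. Trub2, a mitochondrial pseudouridine synthase gene, rose with TNF (1.09, SE 0.29, edgeR adjusted p = 0.00255) and fell with hypoxia (-1.03, SE 0.30, edgeR adjusted p = 0.0104), both against IFNg.

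Of 15 translation factors and partners, 1 rose and 3 fell with TNF, where 22.1% of all tested genes were called higher and 22.6% lower. Guf1, an elongation factor of the back-translocase type, was at -1.52 (SE 0.30, edgeR adjusted p = 0.000133), Oxa1l, which inserts newly made subunits into the inner membrane, at -1.27 (SE 0.16, edgeR adjusted p = 2.63e-07), and Lrpprc, which stabilises mitochondrial messages, at -1.15 (SE 0.18, edgeR adjusted p = 5.45e-06), as log2 fold changes. Slirp, the partner of Lrpprc, rose with TNF by 0.44 (SE 0.17, edgeR adjusted p = 0.0359), with LPS by 0.69 (SE 0.17, edgeR adjusted p = 0.00403) and with IFNg against control by 0.78 (SE 0.17, edgeR adjusted p = 0.00102). Oxa1l also fell with LPS (-0.72, SE 0.16, edgeR adjusted p = 0.00134) and hypoxia (-0.68, SE 0.16, edgeR adjusted p = 0.00202).

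Of 10 tested regulators of mitochondrial gene expression 3 rose with IFNg, 3 rose and 2 fell with TNF, and 1 fell with hypoxia. Of all tested genes, 13.5% were called higher with IFNg, 22.1% higher and 22.6% lower with TNF, and 13.5% and 11.8% with hypoxia. Ppargc1b, the coactivator PGC-1beta, had 26.8, 28.5 and 31.8 CPM with IFNg, against 2.37, 1.53 and 4.36 CPM in control. The IFNg libraries all lay far higher, by 3.40 on the log2 scale (SE 0.27, edgeR adjusted p = 1.28e-10), and Pprc1, a relative of it, rose by 1.09 (SE 0.14, edgeR adjusted p = 6.83e-07). With TNF Ppargc1b averaged 16.5 ± 1.59 CPM against 29.0 ± 2.52 CPM with IFNg alone (SD, n = 3 each), a log2 fold change of -0.81 (SE 0.24, edgeR adjusted p = 0.00741). Nrf1, the factor of the core motif counted above, rose by 0.47 on the log2 scale with TNF (SE 0.17, edgeR adjusted p = 0.0275), and Gabpb1, a subunit of GABP, by 0.65 (SE 0.22, edgeR adjusted p = 0.0154). Myc was not called in any comparison and averaged 2.92 ± 1.18 CPM with TNF, 1.87 ± 0.504 CPM with hypoxia and 2.60 ± 0.447 CPM with IFNg (SD, n = 3 each). Members whose promoters hold the NRF1 core counted 1 higher and 3 lower of 20 with TNF, and members in the promoter table without it counted 2 and 13 of 47. With hypoxia the counts were 0 and 2 of 20, and 0 and 11 of 47, and a difference was not tested.

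Nuclear-encoded respiratory chain subunits, the partners of what the mitoribosome makes, counted 1 higher and 23 lower of 75 with TNF, 2 and 15 with hypoxia, 0 and 0 with LPS, and 15 and 0 with IFNg against control. Over all tested genes 22.1% were called higher and 22.6% lower with TNF, 13.5% and 11.8% with hypoxia, 10.2% and 10.1% with LPS, and 13.5% and 10% with IFNg, which also applies to the cytosolic list. The respiratory chain medians on the log2 scale were -0.37 with TNF, -0.24 with hypoxia, -0.04 with LPS and 0.25 with IFNg against control. Cytosolic ribosomal proteins, of which 44 of 84 passed the filter, counted 0 higher and 8 lower with TNF, 0 and 0 with hypoxia (2 with an unadjusted p under 0.05), 0 and 4 with LPS, and 0 and 3 with IFNg against control, by edgeR. The share of all tested genes with such an unadjusted p is not given here for hypoxia.

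**Figure D5:**
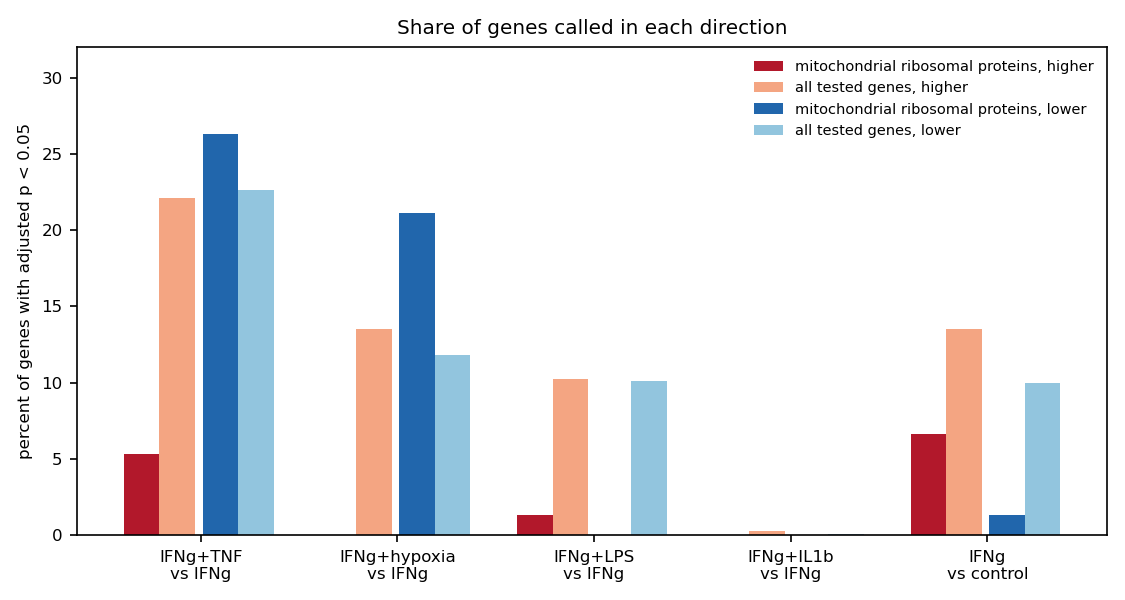
Percent of the 76 tested members and of all 11563 tested genes called higher or lower at an edgeR adjusted p under 0.05 in 5 comparisons. For hypoxia 21.1% of members are lower, against 11.8% of all genes, and for TNF 26.3% of members are lower, against 22.6% of all genes.

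Cell type markers moved alongside some of these results. The macrophage markers Adgre1, Csf1r, Cd68, Lyz2, Itgam, Fcgr1, Mertk and Spi1 were detected in every library, summing to 13955 to 14567 CPM with TNF, 16933 to 17531 CPM with hypoxia, 13642 to 15384 CPM with IFNg and 20624 to 26086 CPM in control. Single markers moved within these sums. With TNF 2 rose and 4 fell, with Mertk at 2.49 and Fcgr1 at -1.21 on the log2 scale, and with hypoxia 3 rose. Among all tested genes 22.1% were called higher and 22.6% lower with TNF, 13.5% and 11.8% with hypoxia, and 10.2% and 10.1% with LPS. Of 10 neutrophil and granulocyte precursor markers 8 fell with TNF and 8 with LPS, and their sum was 10.2 to 17.5 CPM with TNF, 25.1 to 35.8 with LPS, 65.0 to 93.9 with hypoxia, 109 to 128 with IFNg and 85.9 to 136 in control. The tested B cell markers, Ighm and Cd79b, both fell with TNF, while Ms4a1 and Pax5 were at 0 counts throughout, and the summed level of the B cell markers was 7.30 to 12.6 CPM with TNF, 62.7 to 109.6 with LPS, 250 to 283 with hypoxia and 505 to 579 with IFNg. The sum is nearly all Ighm, and with hypoxia Ighm fell by 1.11 on the log2 scale while Cd79b rose by 1.38 (edgeR adjusted p = 9.11e-06 for Ighm and 0.0379 for Cd79b). The 5 dendritic cell markers summed to 88.4 to 98.6 CPM with hypoxia and 17.2 to 22.5 CPM with IFNg, a rise of Dpp4 (log2 fold change 2.87, edgeR adjusted p = 6.49e-09), while the other 4 had log2 fold changes below 0, none of them called. Cd3e, Cd3d and Cd3g of T cells and Ncr1, Klrb1c, Eomes and Gzma of NK cells were at 0 counts in all libraries. Klrk1, the fifth NK cell marker, averaged 85.1 CPM with IFNg and 0.625 CPM in control (log2 fold change 7.14, edgeR adjusted p = 5.96e-09), and fell by 2.10 with TNF and by 1.40 with LPS on the log2 scale. Cd247, a T cell marker, averaged 2.90 CPM with TNF and 0.321 CPM with IFNg (log2 fold change 3.18, edgeR adjusted p = 0.0353). The part of other cells in the members' results was not tested beyond these values.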

How the data were processed

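RNA sequencing counts were analysed for 18 mouse macrophage libraries in 6 groups of 3, as the sample labels give them. Per the labels' protocols, a stranded mRNA kit was used on 100 ng of total RNA, and sequencing gave 50-base single-end reads. The submitters' processing notes name GSNAP and mm10. No source used here names the counting program, the annotation it read or whether it used strand, which leaves overlapping and near-identical genes uncertain. Each file deposited by the authors holds a read count, a width and an RPKM value for the same 22598 genes. Of the widths, 86.7% are multiples of 3, and 67 of 78 members' widths lay within 5% of their coding length in GENCODE M21, so most widths follow coding length, and RPKM levels of the others are on another length.

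Counts were tested with edgeR 4.0.16 (glmQLFit with robust estimation, glmQLFTest, R 4.3.3), TMM normalization and filterByExpr, as 1 model of 6 group means fitted to all libraries. Adjusted p-values are Benjamini-Hochberg over 11563 tested genes, with a threshold of 0.05. The size of the log2 fold change over the square root of F gave each SE. TMM factors lay between 0.805 and 1.19, and 3 counts in a library stand at 0.151 to 0.255 CPM. The deposited RPKM values imply library totals between 22728833 and 39859629 reads, and gene counts made up 51.7 to 56.5% of them. These totals served as another scaling. RPKM was otherwise used only to compare levels between genes. Alternatives were RLE size factors, RPKM totals, no low-count filter, DESeq2 1.42.0, fits of 2 groups, a replicate block and leaving out each library.

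Members and lists were chosen with earlier results of these data known. Named members were up to 8 called in each direction with the largest change per comparison, those called both ways or against the median, the 4 highest and 4 lowest by RPKM, and those that failed the filter. From other lists, up to 4 called genes with the largest change per comparison, with Myc, Ppargc1b and the 5 mitoribosome proteins outside the pattern, were eligible. Other called members are named with a range of fold changes. A window was shared when its 50 bases occur in an annotated transcript of another gene, on either strand. Library numbers in the labels were not taken to pair samples. One cell type marker is not reported here.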

Additional observations from a re-analysis of the deposited data

How the results depend on the processing

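Of 72 calls of a member in a comparison, 36 kept their direction and threshold under every alternative and 36 were lost under at least one, with 0 reversed. DESeq2 lost 0 of them, the replicate block 2, RLE size factors 2, no low-count filter 4, RPKM totals 5 and fits of only 2 groups 9. RPKM totals gave 39 called members for TNF against IFNg, 29 for hypoxia against IFNg, 30 for TNF against LPS and 0 for LPS against IFNg. With those totals 14.6% of all tested genes were called higher and 34.5% lower for TNF, and 7.68% and 22.2% for hypoxia. For TNF against LPS the shares were 7.65% and 22.7%, and for LPS 962 and 1441 of 11563 genes were called. For LPS against IFNg, RLE size factors gave 2 and DESeq2 gave 3, where the main count was 1. There RLE size factors called 1203 of all tested genes higher and 1143 lower, and DESeq2 called 1322 and 1268. The cause of these moves was not tested. Leaving out 1 library gave 16 to 24 called members for TNF, 10 to 14 for hypoxia, 0 to 3 for LPS, 0 to 0 for IL1b and 4 to 6 for IFNg against control. It gave 7 to 12 for TNF against LPS and 11 to 16 for TNF against hypoxia. Of the 11811 to 11933 genes tested in such fits, 2241 to 2413 were called higher and 2278 to 2459 lower for TNF. For hypoxia 1184 to 1333 were called higher and 1056 to 1116 lower. For LPS the counts were 911 to 1138 and 922 to 1102, and for IL1b 14 to 32 and 1 to 3. They were 1334 to 1445 and 894 to 1005 for IFNg against control. For TNF against LPS they were 1233 to 1420 and 1135 to 1315, and for TNF against hypoxia 1872 to 2034 and 2004 to 2142.

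With replicate number as a block, 24 members were called for TNF, 16 for hypoxia, 1 for LPS, 0 for IL1b, 6 for IFNg, 11 for TNF against LPS and 16 for TNF against hypoxia. The 2 calls it lost were those of Mrps23. Over 45 pairs of libraries with the same number in different groups, deviations from the group means correlated at -0.095 to 0.233 (median 0.035), above 0.1 in 9 pairs, and 12 of 18 libraries correlated best with their own number. Over the 90 pairs with different numbers in different groups, the deviations correlated at -0.193 to 0.175 (median -0.0265). Libraries of the same number share M1, M2 or M3 in their titles, and the labels do not say what it stands for. With the block the split was 2 higher and 9 lower for TNF against LPS and 9 higher and 7 lower for TNF against hypoxia. Of 11563 tested genes the block called 2649 higher and 2691 lower for TNF, and 1657 and 1455 for hypoxia. For LPS it called 1263 and 1252, for IL1b 39 and 9, and for IFNg against control 1663 and 1254. For TNF against LPS it called 1630 and 1482, and for TNF against hypoxia 2268 and 2389.

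Counting error is largest where counts are few, as in the hypoxia library with 3 counts of Mrps28. Against IFNg, the calls of Mrpl12, Mrps23, Mrps27, Mrps34 and Mrps35 with TNF, of Mrpl40 and Mrpl41 with hypoxia and of Mrpl39 with LPS were each lost in at least 4 of 6 fits that left out 1 library.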
